A study of Mus musculus with 4 samples.

Results

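The genes described here encode receptors for glutamate, GABA and glycine, the main fast transmitters of the brain, and the measure was CpG methylation in hippocampal microglia. They were the autosomal protein-coding genes whose symbol begins with Gria, Grik, Grin1 to Grin3, Grid with a number, Grm with a number, Gabra, Gabrb, Gabrg, Gabbr or Glra, and 41 of 20665 autosomal protein-coding genes met this rule. They were 3 AMPA, 5 kainate, 7 NMDA and 3 delta genes, 8 metabotropic glutamate receptor genes, 11 GABA-A, 2 GABA-B and 2 glycine receptor genes. Grid2ip entered the delta family by its symbol alone, since it encodes a scaffold protein and is no receptor.

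DNA had been bisulfite-sequenced across the genome in 2 libraries of mice with fetal growth restriction (FGR) and 2 libraries of control mice. In all 4 the cells were hippocampal microglia, which are resident macrophages of brain tissue, at 3 weeks after birth. FGR and control mice alike had the genotype Tmem119-tdTomato+/-, in which a fluorescent protein is placed at the microglial gene Tmem119. The labels do not say how growth was restricted, what sex the mice were, or whether a library is 1 animal or a pool, so p-values measure only the spread between these libraries, which may be technical. Where values of 2 libraries are given, replicate 1 precedes replicate 2.

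Ionotropic glutamate receptors (AMPA, kainate, NMDA) and the GABA-A and glycine receptors are ion channels assembled from several subunits, each with its own gene, while metabotropic glutamate receptors and GABA-B receptors signal through G proteins. Glutamate channels excite neurons, and GABA-A and glycine channels mostly inhibit them in the mature brain. Most of these subunits are known from neurons, although metabotropic glutamate and GABA-B receptors have also been reported in rodent microglia. CpG methylation is usually low at CpG-dense gene starts and high across the rest of a gene.

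The level of a region is its methylated read counts as a percent of all read counts, summed over its CpGs in 1 library, so the same read is counted once for every CpG it spans. A difference is the mean of the FGR libraries minus the mean of the control libraries, in percentage points, and errors are SD over n = 2 libraries. The FGR libraries listed 7615146 and 13578464 cytosines with a summed coverage of 49563150 and 91762720 reads, against 9335713 and 10023353 cytosines with 62202250 and 66971740 reads in the control libraries. Autosomal methylation was 74.6% and 75.6% in the FGR libraries, against 76.0% and 76.4% in the control libraries. No cytosine with fewer than 5 reads was listed, so libraries listed different CpGs, and only 7250 (10.6%) of 68195 CpGs in receptor genes were listed in all 4. CpGs within 1000 bp of annotated starts made up 2.80% and 2.35% of the CpGs kept in the FGR libraries, against 2.32% and 2.20% in the control libraries. This difference in listing accompanies every result over all CpGs, and its part in them was not tested other than by the comparisons on shared CpGs given below.

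Of 10 known microglial genes 7 had a measured start, and most of these starts had little methylation. At 0 to 4.44% in every library, the start of P2ry12, a purinergic receptor of microglia, was nearly free of methylation, and that of Sall1, a regulator of microglial identity, was at 0% throughout. Aif1 went against this pattern with 67.7% and 84.9% in the FGR libraries, against 96% and 84.9% in the control libraries. Trem2 was intermediate at 18.4% to 23.1%, and Siglech had 10% and 0% in the FGR libraries, against 34.1% and 0% in the control libraries. Genes of other cell types were mixed: Rbfox3, a neuronal marker, had 79.2% to 93.3%, the lymphocyte gene Cd79a 79.8% to 88.6%, and the monocyte receptor gene Ccr2 87.9% to 94.1%, while Mrc1, a gene of other brain macrophages, had 11.7% and 10.4% in the FGR libraries, against 5.50% and 3.70% in the control libraries, and the starts of the neuronal genes Gad1, Gad2 and Syt1 were at 0% to 10.7%. Summed over the measured starts, 6 neuronal genes had 16.8% and 25.9% in the FGR libraries, against 29.7% and 24.5% in the control libraries. For 7 microglial genes the sum was 12.2% and 19.3%, against 16.0% and 17.3%. Low starts were thus found in both of these lists, and the levels are not a measure of expression.

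RefSeq gave an annotated start for 27 of the 41 genes on GRCm38.p6, the assembly of mm10. In some genes this start lay more than 1000 bp inside the gene, so its window missed the gene's outer end. Among them were Gabra5, Grid2ip, Grin2d, Grik5, Gria2 and Grik2. The Gabra5 start lay farthest inside, at 57510059 in an extended span that ended at 57593016. In the 250 bases before the start these 27 held a median of 12 CpGs, against 10 over 16457 promoters. The level within 1000 bp of the start, over all 4 libraries together, was under 10% for 10 genes, 10 to 30% for 11 and 30% or more for 6. Sequences before 5 starts are printed from 5′ to 3′ with each CpG in capitals, because they span this range and include 3 of the 6 tested starts of smallest p, those of Grin1, Gabrg3 and Gabra2. They are Grm8 (chr6:28135147-28135396, minus strand, 29 CpGs), Gabra2 (chr5:71095850-71096099, minus strand, 18 CpGs), Grin1 (chr2:25319188-25319437, minus strand, 27 CpGs), Gabrg3 (chr7:57387216-57387465, minus strand, 9 CpGs) and Gabra6 (chr11:42321073-42321322, minus strand, 2 CpGs).
Grm8: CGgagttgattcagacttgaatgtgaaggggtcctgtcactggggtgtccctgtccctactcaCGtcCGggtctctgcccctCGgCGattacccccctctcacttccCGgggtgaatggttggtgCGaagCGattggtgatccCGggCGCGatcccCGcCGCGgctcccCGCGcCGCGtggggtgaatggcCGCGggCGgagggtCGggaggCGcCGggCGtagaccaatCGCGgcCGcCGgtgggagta
Gabra2: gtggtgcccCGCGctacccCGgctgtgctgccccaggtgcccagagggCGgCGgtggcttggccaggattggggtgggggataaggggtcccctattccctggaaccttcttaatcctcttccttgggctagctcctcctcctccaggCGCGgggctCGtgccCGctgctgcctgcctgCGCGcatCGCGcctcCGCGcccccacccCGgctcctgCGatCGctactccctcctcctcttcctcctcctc
Grin1: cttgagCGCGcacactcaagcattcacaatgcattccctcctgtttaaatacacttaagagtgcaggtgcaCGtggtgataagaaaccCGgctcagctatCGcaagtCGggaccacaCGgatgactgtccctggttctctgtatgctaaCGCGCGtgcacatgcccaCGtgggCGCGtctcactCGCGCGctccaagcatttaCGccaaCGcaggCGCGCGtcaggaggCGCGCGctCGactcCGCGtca
Gabrg3: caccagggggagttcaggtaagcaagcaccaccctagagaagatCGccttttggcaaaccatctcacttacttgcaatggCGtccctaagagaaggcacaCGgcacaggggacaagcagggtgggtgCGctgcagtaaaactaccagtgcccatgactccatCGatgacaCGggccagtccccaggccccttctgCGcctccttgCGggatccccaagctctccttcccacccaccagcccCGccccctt
Gabra6: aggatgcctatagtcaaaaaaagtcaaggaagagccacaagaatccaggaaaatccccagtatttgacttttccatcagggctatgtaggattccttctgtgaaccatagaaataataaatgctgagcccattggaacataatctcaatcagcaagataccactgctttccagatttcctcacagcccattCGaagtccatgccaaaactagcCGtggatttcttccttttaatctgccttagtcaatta

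CpG density was counted in the printed kind of window before the start, while each level covers the wider window around the start. Compared over these unlike windows, level and CpG density did not always go together. Whether they do within the same window was not tested, since few libraries listed CpGs in the printed kind of window. Grm8 had more CpGs than 91.5% of all promoters and a level of 2.03%, and Gabra2 had more than 70.3% of promoters and a level of 8.76%. Grin1, with more CpGs than 89.3% of promoters, reached 29.5%, while Gabra6, with more than only 15.8%, had the highest level of the 27 at 68.8%. Of the 10 starts under 10%, 7 had 10 or more CpGs in the printed kind of window and 3 had fewer, among them Grm6 with 4 CpGs and 1.17%, the lowest of all. Single CpGs show how unevenly the libraries cover these windows. In the Gabra2 window 13 CpGs were listed in FGR replicate 1, with 2 of 80 read counts methylated, and 12 in FGR replicate 2, with 5 of 69 methylated, whereas neither control library listed any. In the Grm8 window 16 CpGs were listed in FGR replicate 2 alone, with 3 of 80 read counts methylated. The Grin1 window had 8 CpGs in FGR replicate 2, with 8 of 40 read counts methylated, and 5 in control replicate 1, with 3 of 25 methylated. The Gabrg3 window had 6 CpGs in control replicate 2, with 2 of 40 read counts methylated, and a single CpG in each FGR library. Both Gabra6 CpGs were listed in FGR replicate 1 alone, with 6 of 10 read counts methylated.

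**Figure D1:**
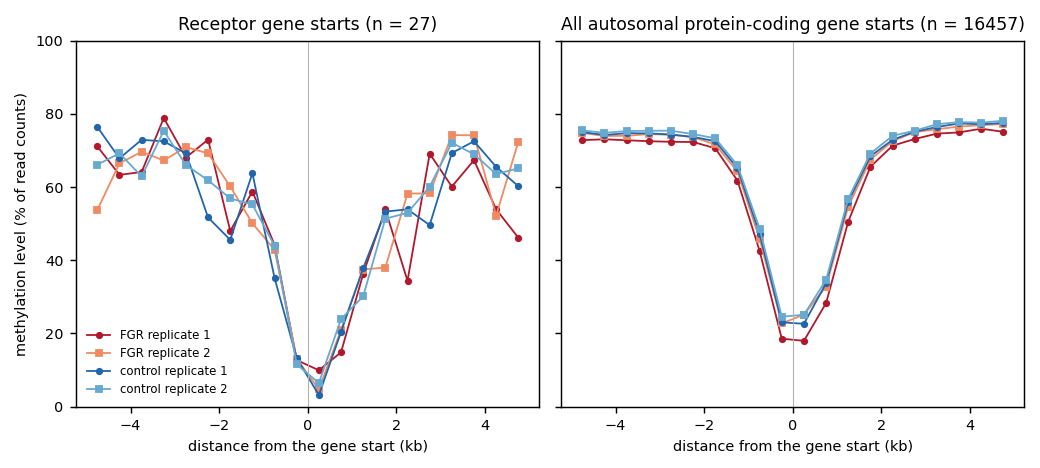
Methylation level (percent of read counts) in bins of 500 bp by distance from the annotated start (kb), for 27 receptor genes on the left and 16457 genes on the right, with 1 line per library. Receptor genes reach 3.14% to 9.92% just after the start, against 18.0% to 25.1% over all genes, and the lines of the FGR and control libraries cross each other there.

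Around the annotated starts the receptor genes formed a deep trough. In the first 500 bp of the gene their level was 9.92% and 4.69% in the FGR libraries, against 3.14% and 6.45% in the control libraries, and the groups overlapped. Over all 16457 starts the same bin had 18.0% and 25.1% in the FGR libraries, against 22.6% and 25.1% in the control libraries. In the 500 bp before the start the receptor genes had 12.7% and 13.1% in the FGR libraries, against 13.2% and 11.5% in the control libraries, as the plot of levels around starts shows. Farther upstream, 4500 to 5000 bp before the start, the level was 71.1% and 53.7% in the FGR libraries, against 76.5% and 66.1% in the control libraries.

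**Figure D2:**
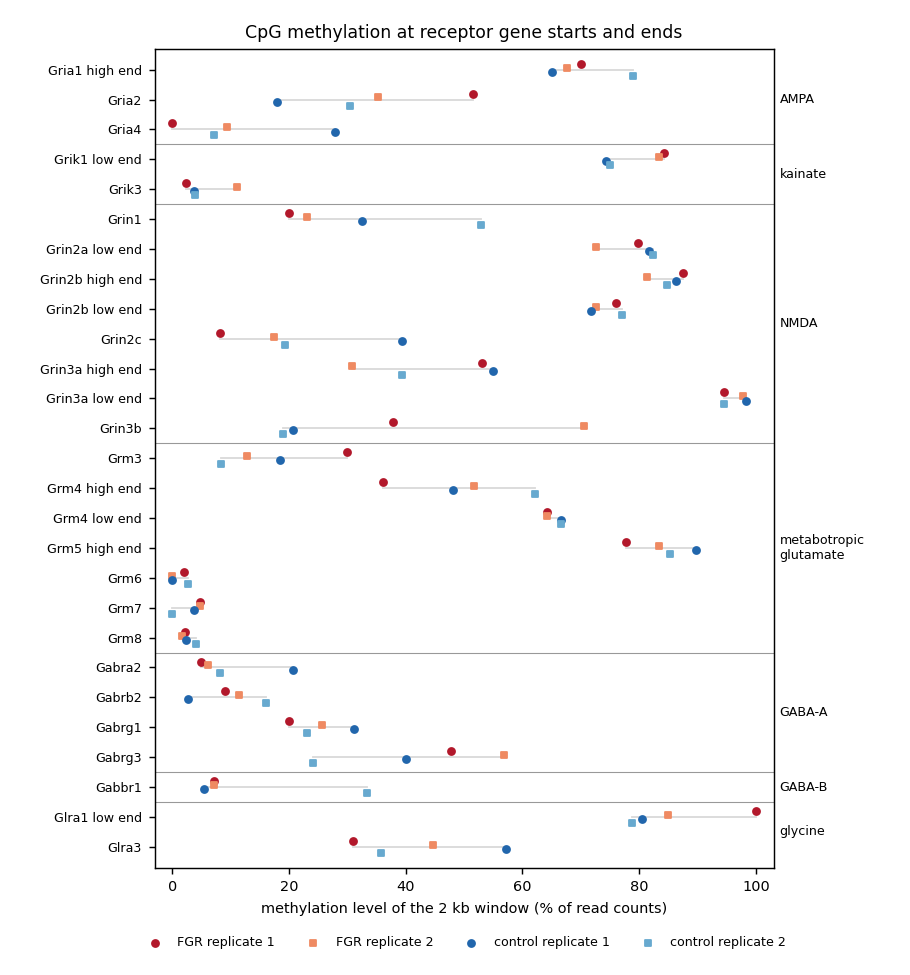
Methylation level (percent of read counts) of 27 of the tested start and end windows of receptor genes, 1 point per library, grouped by family. Grm6, Grm7 and Grm8 lie under 5% in every library, Grin3b is higher in both FGR libraries and Grin1 lower in both.

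For the 14 genes without an annotated start (among them Gria1, Grik1, Grin2a, Grin2b, Grin3a, Grid1, Grm4, Grm5 and Glra1) both ends were measured, from 1500 bp outside to 500 bp inside the gene, and are called low and high end by coordinate. Of these 55 windows 33 met the minimum of 3 CpGs and 10 reads per library, 16 starts and 17 ends. A call required that the adjusted p be under 0.05 and that the groups differ by 10 points or more. None of the 33 was called, and neither was any of 17485 windows of all genes (0%). On simulated data this test called 0 of 50 starts changed by 60 points, so its count of 0 carries no information. By the unadjusted test 2 of 33 had p under 0.05, against 6.13% of all windows. The tested windows held 15 to 241 read counts per library, and Wilson 95% intervals of single libraries had a median width of 18.1 points. These intervals treat read counts as independent, although the same read is counted at every CpG it spans, so they can be too narrow.

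Among the AMPA receptor genes, which encode the channels of fast excitation, the start of Gria4 was the least methylated and that of Gria2 the most. The level at Gria4 was 0% and 9.38% in the FGR libraries, against 27.9% and 7.14% in the control libraries, and the groups overlapped. Gria2, whose subunit sets the calcium permeability of the channel, had 51.5% and 35.2% in the FGR libraries, against 17.9% and 30.4% in the control libraries. Both FGR libraries were the higher, by 19.2 points on average (adjusted p = 0.89), over 101 to 181 read counts. At the 15 CpGs that at least 1 library of each group listed, a comparison chosen after the data were seen, the order turned: 47.6% of 225 FGR read counts were methylated, against 52.6% of 133 control read counts. Among the kainate receptor genes Grik4 was lowest, with 4% over 50 read counts in FGR replicate 1 and no CpG listed in FGR replicate 2, against 2.13% and 1.10% in the control libraries. Grik5 was highest at 50%, but over only 18 read counts of control replicate 1, the single library that listed it.

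The NMDA receptor genes held the strongest unadjusted differences at starts. Grin3b encodes a subunit that binds glycine. Its start had 37.8% and 70.6% in the FGR libraries, against 20.8% and 19.0% in the control libraries, over 51 to 241 read counts, a difference of 34.3 points (adjusted p = 0.80). The mean was 54.2 ± 23.2% in FGR and 19.9 ± 1.22% in control, so the spread lay mostly within FGR. No CpG of this window was listed in all 4 libraries, and at the 17 listed in both groups 38.0% of 142 FGR read counts were methylated, against 17.9% of 140 control read counts. Grin1, the subunit every NMDA receptor needs, went the other way at its start, shown above. It had 20% and 23.1% in the FGR libraries, against 32.4% and 52.9% in the control libraries, a difference of -21.1 points (adjusted p = 0.80). At its 10 CpGs listed in both groups 40.4% of 57 FGR read counts were methylated, against 55.6% of 72 control read counts.

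The other NMDA starts were measured less evenly. Grin2c had 8.20% and 17.4% in the FGR libraries, against 39.4% and 19.4% in the control libraries (difference -16.6 points, adjusted p = 0.80), with the FGR libraries lower. At the 10 CpGs that both groups listed there, 9.28% of 97 FGR read counts were methylated, against 18.2% of 55 control read counts. Grin2d, the NMDA gene with the lowest level over all libraries, was not listed in FGR replicate 1 and had 65.8% of 38 read counts in FGR replicate 2, against 7.34% of 109 and 10% of 20 in the control libraries. The FGR and control libraries listed no common CpG of Grin2d's start. In the delta family the only annotated start was that of the scaffold gene Grid2ip, with 31.0% and 8.33% in the FGR libraries, against 34.8% and 90.9% in the control libraries, the last of these over 11 read counts.

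Among the metabotropic receptor genes, which tune synapses through G proteins, 3 starts stayed near 0 in all libraries. Grm6 had 1.96% and 0% in the FGR libraries, against 0% and 2.74% in the control libraries. At Grm8 the values were 2.13% and 1.69%, against 2.33% and 4%, and at Grm7 4.79% and 4.84%, against 3.70% and 0%. In each of them the groups lay within 3 points of one another on average. Grm2 was the most methylated annotated start of the family, with 40% and 15.7% in the FGR libraries, against 28.4% and 63.6% in the control libraries, where the first FGR and the second control library had only 10 and 11 read counts.

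Of the GABA-A receptor genes, which encode the subunits of the main inhibitory channel, Gabra4 had the lowest start and Gabra6 the highest. Gabra4 had 27.3% of 11 and 0% of 37 read counts in the FGR libraries, against no CpG listed in control replicate 1 and 1.33% of 75 in control replicate 2. Its start lies head to head with that of Gabrb1, and both windows share CpGs. Gabra6 had 74.5% and 61.0% in the FGR libraries, against 72.7% and 72.3% in the control libraries, and the groups overlapped. Gabrg3, whose sequence is shown above, had 47.7% and 56.8% in the FGR libraries, against 40% and 24.1% in the control libraries. The difference was 20.2 points (adjusted p = 0.80). At the 9 CpGs listed in both groups 52.3% of 88 FGR read counts were methylated, against 39.5% of 76 control read counts. Gabra2 had 4.88% and 6.21% in the FGR libraries, against 20.6% and 8.18% in the control libraries, a difference of -8.85 points (adjusted p = 0.90). At 13 such CpGs 8.65% of 104 FGR read counts were methylated, against 14.7% of 75 control read counts.

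GABA-B and glycine receptor starts completed the set. Gabbr1, an obligatory GABA-B subunit, had 7.14% in both FGR libraries, against 5.37% and 33.3% in the control libraries, and the second control value rested on 15 read counts. Gabbr2, its partner, had 11.4% of 123 and 37.5% of 8 read counts in the FGR libraries, against 16.7% of 18 and 7.14% of 28 in the control libraries. Glra3, a glycine receptor alpha subunit, had 30.9% and 44.6% in the FGR libraries, against 57.1% and 35.7% in the control libraries. In all 3 the groups overlapped. Over all 27 annotated starts the summed level was 19.3% and 19.7% in the FGR libraries, against 18.0% and 19.2% in the control libraries.

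Whole gene spans, extended by 2 kb on each side, gave deeper coverage. The receptor genes were long, with a median of 189653 bp before extension, against 17491 bp over all genes. Their median level was 69.2% in FGR and 69.8% in control, against 73.4% in FGR and 74.9% in control over 20219 genes. Among long genes the gap was wider: the 25 receptor spans of 100 kb or more had a median of 69.7% in FGR and 70.0% in control, and the 2310 spans of that length over all genes had 78.6% in FGR and 79.7% in control. The middle range between the quartiles was 68.2% to 72.8% for these long receptor genes and 74.0% to 84.7% for all long genes, with the groups averaged. No test was made of this contrast.

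**Figure D3:**
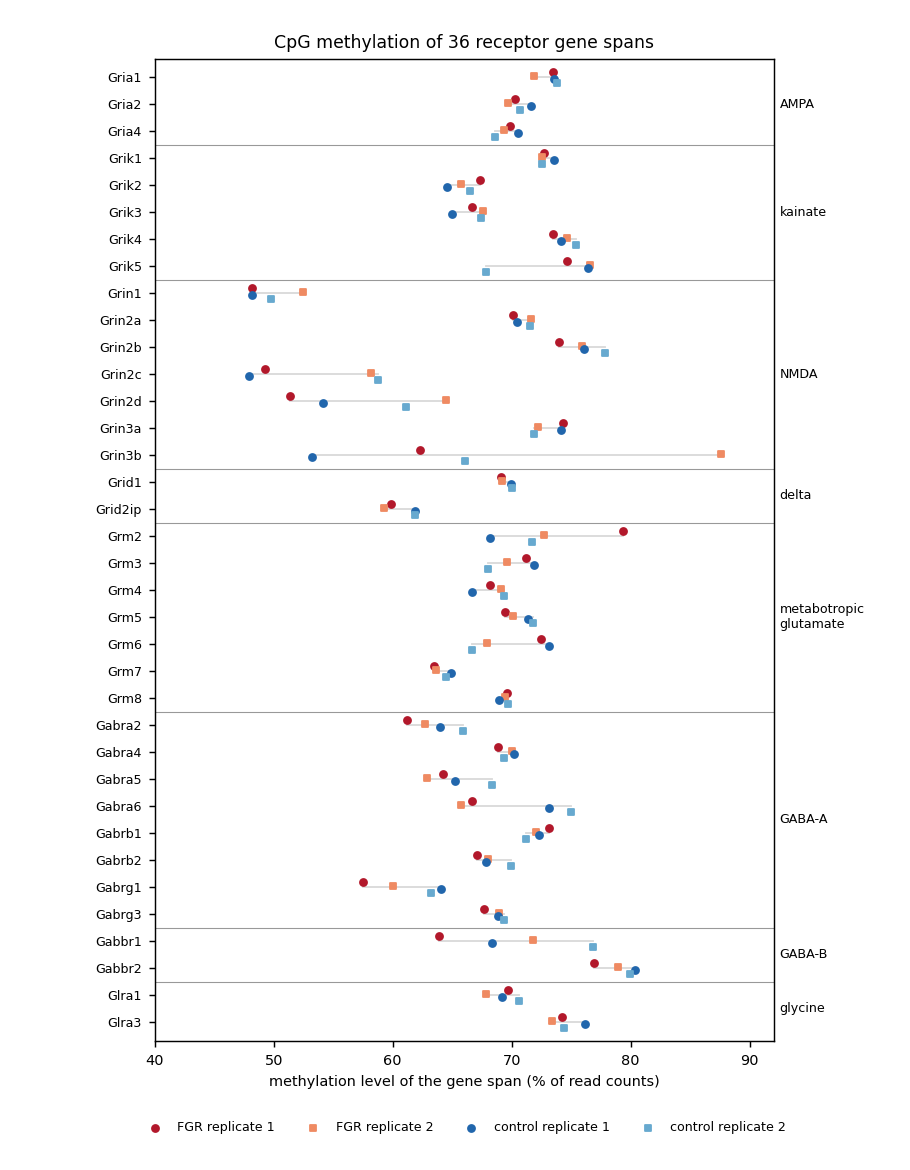
Methylation level of 36 of the gene spans (percent of read counts, axis from 40 to 92), 1 point per library, grouped by family. Most genes lie between 60% and 80% with the libraries close together, while Grin1, Grin2c, Grin2d and Grin3b show lower levels or wide gaps between libraries.

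No receptor gene span was called as different between FGR and control, and 0 of 20219 spans were called genome-wide (0%). None of the 41 had an unadjusted p under 0.05, against 6.39% of all spans, and limma on log2 ratios called 0 as well. The smallest adjusted p among them was 0.78. This test recovered 29 of 50 simulated spans changed by 20 points and 41 of 50 changed by 30 points, among 20219 spans. In that simulation 50 spans at each of several sizes were changed together, which eases the adjusted threshold. Their starting levels were drawn over a wide range. Recovery of a lone change at the levels of the receptor genes was not tested. FGR was the lower in 26 of 41 genes (63.4%), against 63.8% of all spans, and the median difference was -0.79 points against -1.26 over all spans. Both FGR libraries lay below both control libraries in 15 of 41, against 26.2% of all spans, and above them in 1 of 41, against 10.4%. Summed over all 41 genes the level was 69.4% and 69.9% in the FGR libraries, against 70.2% and 70.5% in the control libraries.

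Among the NMDA receptor genes, Grin1 had the lowest span level of the 41 genes, with 48.1% and 52.5% in the FGR libraries, against 48.2% and 49.8% in the control libraries, and the groups overlapped. Grin3b had 62.3% and 87.6% in the FGR libraries, against 53.2% and 66.0% in the control libraries (difference 15.3 points, adjusted p = 0.78), over 244 to 580 read counts. FGR replicate 1 lay between the control libraries there, so the difference rests on FGR replicate 2. Grin2b, a subunit prominent early in development, had 73.9% and 75.9% in the FGR libraries, against 76.1% and 77.8% in the control libraries, and both FGR libraries were lower, with a mean difference of -2.03 points (adjusted p = 0.80). By sign, 2 of 7 NMDA genes were lower in FGR, against 2 of 3 AMPA and 2 of 5 kainate genes.

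Among metabotropic genes, 3 of 8 were lower in FGR, and in these 3 both FGR libraries lay below both controls. Grm5, a receptor that couples to Gq, had 69.4% and 70.1% in the FGR libraries, against 71.4% and 71.8% in the control libraries (difference -1.85 points). Grm7, a presynaptic receptor, had 63.5% and 63.7% in the FGR libraries, against 64.9% and 64.5% in the control libraries (difference -1.17 points). The adjusted p was 0.79 for Grm5 and 0.80 for Grm7, and neither was called. Grm2, with 76.0 ± 4.73% in FGR and 70.0 ± 2.52% in control, was the only receptor gene whose FGR libraries both lay above the controls.

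GABA-A receptor genes were lower in FGR in 10 of 11, with both FGR libraries below both controls in 4. Gabra5, an alpha subunit abundant in the hippocampus, had 64.2% and 62.9% in the FGR libraries, against 65.2% and 68.3% in the control libraries (difference -3.20 points, adjusted p = 0.81). Gabra6, known chiefly from cerebellar granule cells, had the most negative difference of the 41, with 66.7% and 65.8% in the FGR libraries, against 73.1% and 75% in the control libraries (difference -7.84 points), over 258 to 599 read counts. Genes of this family lie side by side in clusters, so they are not independent. The cluster on chromosome 5 (Gabrg1, Gabra2, Gabra4, Gabrb1) had 68.9% and 68.8% in the FGR libraries, against 69.6% and 69.0% in the control libraries, a difference of -0.51 points with both FGR libraries lower. Restricted to CpGs that all 4 libraries listed, this cluster differed by -0.94 points.

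Gabbr2 had the smallest p of the 41 spans. Its level was 76.9% and 78.9% in the FGR libraries, against 80.4% and 80.0% in the control libraries, over 8378 to 15965 read counts, a difference of -2.28 points (adjusted p = 0.78). At the 179 CpGs that all 4 libraries listed, Gabbr2 had 81.0% and 79.9% in the FGR libraries, against 79.3% and 80.9% in the control libraries, so the groups overlapped and the sign turned (difference 0.34 points). Both GABA-B genes and both glycine receptor genes were lower in FGR over all CpGs, but Gabbr2 and Glra1 were higher in FGR on shared ones. Gabbr2 also had the highest level of any receptor span.

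Restricting the spans to CpGs listed in all 4 libraries compared the same cytosines in every sample. Enough such CpGs were found for 38 of 41 genes, all but Grin1, Grin3b and Grm2. None of the 38 was called, and 0 of 16652 spans were called genome-wide (0%), with a smallest adjusted p of 0.97 among the receptor genes. By the unadjusted test 4 of 38 had p under 0.05, against 4.93% of all spans. FGR was the lower in 24 of 38 genes (63.2%), against 54.2% of all spans, with a median difference of -0.52 points against -0.30. Both FGR libraries lay below both controls in 14 of 38, against 19% of all spans, and above them in 4 of 38, against 14.1%.

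**Figure D4:**
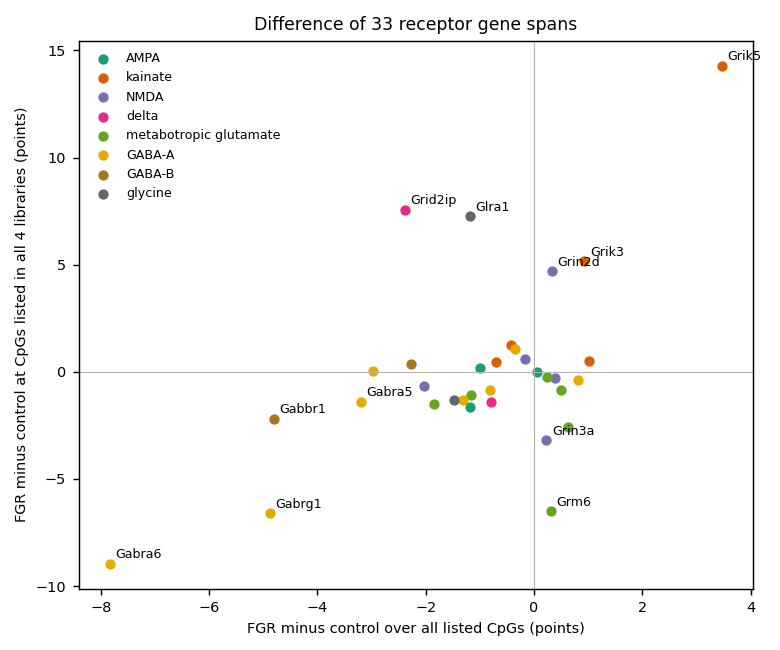
Difference in span level (FGR minus control, percentage points) of 33 receptor genes over all listed CpGs on the horizontal axis and at CpGs listed in all 4 libraries on the vertical axis, coloured by family. Gabrg1 and Gabra6 lie low on both axes, whereas Glra1 and Grid2ip change sides and 16 of these 33 genes keep their sign.

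The 4 genes with an unadjusted p under 0.05 on shared CpGs were Gabrg1, Grik5, Glra1 and Grik3. Gabrg1, a gamma subunit of GABA-A receptors, was at 58.6% and 59.4% in the FGR libraries, against 67.1% and 64.2% in the control libraries, over 68 CpGs and 498 to 668 read counts (difference -6.61 points). Grik5, a kainate subunit of high affinity, had 80.3% and 76.0% in the FGR libraries, against 63.0% and 64.7% in the control libraries, over 11 CpGs and 68 to 96 read counts (difference 14.3 points). Over all its CpGs Grik5 differed by 3.47 points with overlapping groups, and by -0.78 points without control replicate 2. Glra1, the glycine receptor subunit of adult spinal cord, had 73.5% and 73.4% in the FGR libraries, against 65.9% and 66.5% in the control libraries, over 30 CpGs (difference 7.28 points). In all 3 genes the groups were apart by more than the gap within either group. Grik3, another kainate subunit, had 70.1% and 68.4% in the FGR libraries, against 61.3% and 66.8% in the control libraries, over 76 CpGs (difference 5.17 points, against 0.93 points over all CpGs). Each of these 4 genes had an adjusted p of 0.97.

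Grin3a, which encodes an NMDA subunit that lowers calcium entry, came next with 72.4% and 73.2% in the FGR libraries, against 74.0% and 78.1% in the control libraries, over 134 CpGs (difference -3.19 points). Gabra6 had 71.2% and 64.9% in the FGR libraries, against 77.9% and 76.1% in the control libraries, over 10 CpGs and 59 to 97 read counts (difference -8.95 points). Gabra6 and Gabrg1 thus had FGR below control over all CpGs and over shared ones, and by more than 4 points in both. Both FGR libraries lay below both controls in both sets of CpGs for 9 of 38 genes, against 7.09% of 16652 genes, among them Gabrg1, Gabra6, Grid1, Grm5, Gria2, Glra3 and Grin2b. In Grid1, Grm5, Gria2, Glra3 and Grin2b the differences lay between -2.03 and -0.67 points. The sign on shared CpGs was that of all CpGs in 20 of 38 genes, against 57.4% of all genes.

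The counts of some families changed between the 2 sets of CpGs. All 5 kainate genes were higher in FGR on shared CpGs, against 3 of 5 over all CpGs, and all 7 metabotropic genes tested were lower, against 3 of 8. Summed over the kainate genes, the level on shared CpGs was 71.3% and 71.2% in the FGR libraries, against 69.8% and 70.4% in the control libraries. For the metabotropic genes it was 68.8% and 68.1%, against 69.4% and 69.2%. GABA-A genes were lower in 8 of 11 on shared CpGs, with a summed level of 67.6% and 68.0% in the FGR libraries, against 68.5% and 69.5% in the control libraries. In these 3 families the summed levels of FGR and control libraries did not overlap. The same held for the delta family, with 68.2% and 68.8% in the FGR libraries, against 69.3% and 69.7% in the control libraries. In the remaining families the groups overlapped. Summed over all 41 genes the level on shared CpGs was 69.9% and 69.8%, against 70.2% and 70.7%, again without overlap. Over all autosomal genes the summed level on shared CpGs was 79.3% and 79.5% in the FGR libraries, against 79.7% and 79.9% in the control libraries.

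Tiles of 1 kb located differences inside the genes. Of 12238 tiles overlapping receptor spans, with or without a listed CpG, 2354 could be tested. Of these 0 were called, against 1 of 550538 genome-wide (0.000182%). The tile test recovered 0 of 50 simulated tiles changed by 30 points, 4 of 50 changed by 40 points and 24 of 50 changed by 60 points, among 550538 tiles. By the unadjusted test 108 tiles (65 lower and 43 higher in FGR) of 2354 had p under 0.05, against 5.01% of all tiles. Tiles at 30 to 60% made up 12.7% of the receptor tiles, against 8.45% of all tiles, and tiles under 20% made up 0.98%, against 1.99%.

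The 8 receptor tiles of smallest p with at least 5 CpGs in each library had adjusted p of 0.79 to 0.96. A tile in Grm4, a presynaptic glutamate receptor gene, on chromosome 17 from 27480001 to 27481000 had 56.2% and 62.8% in the FGR libraries, against 19.5% and 33.5% in the control libraries. None of its 29 CpGs was listed in all 4 libraries. In Gabbr2, 105714 bp into the gene and overlapping Gm32135, the tile on chromosome 4 from 46885001 to 46886000 had 73.0% and 80.5% in the FGR libraries, against 96.8% and 94.1% in the control libraries. Here too the libraries shared no CpG.

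Grik1, a kainate subunit gene, held a higher and a lower tile on chromosome 16. From 88186001 to 88187000 the level was 50.8% and 77.8% in the FGR libraries, against 34.4% and 38.7% in the control libraries, and at the 3 CpGs shared by all libraries the difference was 19.7 points. From 88251001 to 88252000 it was 33.3% and 56.5% in the FGR libraries, against 79.1% and 72.5% in the control libraries, with a difference of -43.0 points at 2 shared CpGs. Both differences kept their sign on shared CpGs. In Grm2 the tile on chromosome 9 from 106650001 to 106651000 had 93.6% and 94.2% in the FGR libraries, against 85.4% and 78.6% in the control libraries. In Gabra6 the tile on chromosome 11 from 42317001 to 42318000, which is 3072 bp into the gene, had 64.9% and 70.1% in the FGR libraries, against 85.7% and 85% in the control libraries, and its single shared CpG had a difference of -29.2 points.

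**Figure D5:**
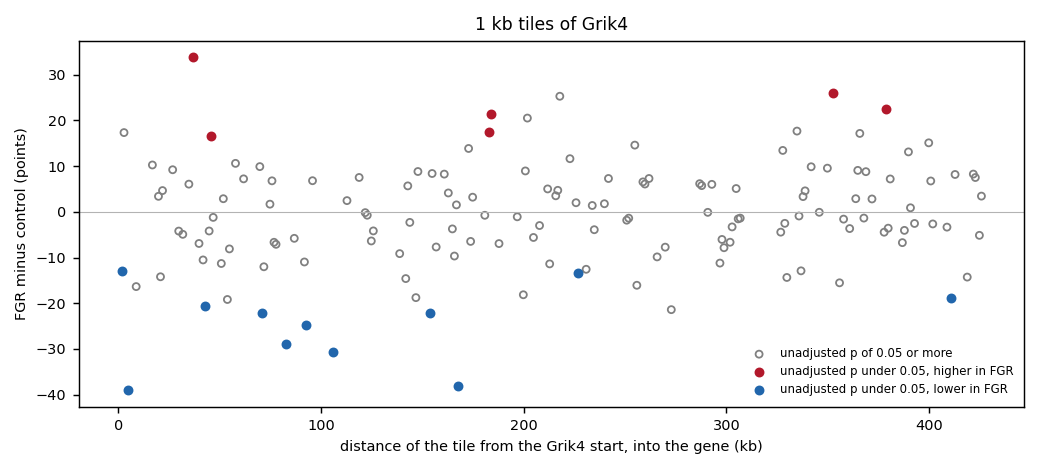
Difference (FGR minus control, percentage points) of each tested 1 kb tile of Grik4 by its distance from the annotated start into the gene (kb), with filled points for an unadjusted p under 0.05. Of the 149 tiles 17 are filled, 11 below 0 and 6 above it, and none passed the adjusted test.

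Grik4, a kainate subunit gene singled out after its values were seen, had 17 of 149 tiles at an unadjusted p under 0.05, 11 lower and 6 higher in FGR, against 108 of 2354 receptor tiles and 5.01% of all tiles. Their distances from the start ran from 1371 to 410371 bp, as the plot of Grik4 tiles shows. Most lay within 226371 bp of the start, and none lay between 226371 and 352371 bp. The span as a whole differed by only -0.70 points. The smallest adjusted p of any receptor tile was that of the tile from 42939001 to 42940000 on chromosome 9, 4371 bp into the gene, with 41.2% and 53.6% in the FGR libraries, against 81.8% and 90.9% in the control libraries (0.40), and no CpG shared by all libraries. The tile from 42861001 to 42862000 had 63.2% and 72.9% in the FGR libraries, against 100% and 93.9% in the control libraries (adjusted p = 0.57), and its 4 shared CpGs had 74.7 ± 2.79% in FGR and 96.3 ± 5.30% in control, a difference of -21.6 points. In both of these tiles control replicate 1 listed only 4 CpGs, so they fell outside the 8 named above and were chosen after their values were seen. The tile on chromosome 9 from 42901001 to 42902000 had 54.9% and 52.9% in the FGR libraries, against 79.5% and 69.2% in the control libraries. At the 2 CpGs that all libraries listed there, FGR had 86.7 ± 4.71% and control 87.0 ± 5.16%, a difference of -0.31 points. The tile from 42717001 to 42718000 had 84.2% and 85.7% in the FGR libraries, against 96.7% and 100% in the control libraries, and its 5 shared CpGs had 90.9% in FGR and 98.9% in control, a difference of -8.04 points.

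A few receptor genes had an unmethylated tile far from their annotated start. Of 23 tiles under 20%, a tile of Grik4 46371 bp inside the gene had 0% and 2.33% in the FGR libraries, against 0% and 4.76% in the control libraries. In Gabbr2 a tile 15714 bp inside had 0% and 4.79% in the FGR libraries, against 9.80% and 0% in the control libraries, and all 6 of its CpGs shared by all libraries were unmethylated. Grik2 had 2.38% and 10.3% in the FGR libraries, against 3.45% and 17.1% in the control libraries, in a tile 4754 bp from its start. In each of these 3 tiles the groups overlapped. A tile 42080 bp into Gabrb1, which overlapped Gm38562, had 0% in both FGR libraries, against 0% and 13.3% in the control libraries, the last over 15 read counts. A low tile within the extended span of Grin1 overlapped the neighbouring gene Lrrc26, and 1 of the 2 low tiles of Grin2d overlapped its neighbour Grwd1.

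Genes that work beside these receptors were examined in 3 lists of other receptor subunits, of auxiliary subunits and scaffolds, and of transmitter synthesis, release and uptake. Of their 7, 33 and 19 spans none was called in either direction, over all CpGs or over shared ones. Over all CpGs an unadjusted p under 0.05 was found for 0, 2 and 0 of them, against 6.39% of all spans. The 2 were Nlgn2, an adhesion protein of inhibitory synapses, and Gabarap, which binds GABA-A receptors. The Nlgn2 span had 80.2% and 79.7% in the FGR libraries, against 58.4% and 59.7% in the control libraries (adjusted p = 0.74), over 288 to 634 read counts. Gabarap had 14.0% and 15.3% in the FGR libraries, against 27.4% and 36.4% in the control libraries (adjusted p = 0.75).

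On shared CpGs 0 of 6 other subunits, 1 of 32 auxiliary genes and 3 of 18 transmitter genes had an unadjusted p under 0.05, against 4.93% of all spans. Among the transmitter genes were Slc6a11, a GABA transporter gene, and Slc17a6, a vesicular glutamate transporter gene. Slc6a11 had 62.5% and 65.7% in the FGR libraries, against 75.9% and 68.2% in the control libraries, over 46 CpGs. Slc17a6 had 67.4% and 62.6% in the FGR libraries, against 57.9% and 56.4% in the control libraries, over 31 CpGs. Their differences of -7.96 and 7.84 points had opposite signs, and the adjusted p was 0.97 for both. Median differences of the 3 lists on shared CpGs were 0.12, 0.03 and 1.06 points, against -0.30 points over all spans. Of the other receptor subunits, the GABA rho subunit gene Gabrr1 had the smallest p there, with 79.8% and 69.1% in the FGR libraries, against 83.9% and 80.9% in the control libraries. At the tested starts and ends of the 3 lists 0 of 8, 4 of 26 and 1 of 17 windows had an unadjusted p under 0.05, against 6.13% of all windows.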

How the data were processed

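Per the submitters' processing notes, Trim Galore 0.6.5, methylKit 1.28.0, Bismark and the build mm10 were used, with the Bismark version and all parameters not given in the sources used here. The deposited coverage is a count of reads per cytosine and strand, per the file headers. The deposited methylation values give, per the file headers, the percent of C and of T at each cytosine. Coverage times percent was whole within 0.02 reads for 100% of cytosines. The lowest coverage was 5, so no floor is given for a level of 0.

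Strands were summed per CpG and in each library the most covered 0.1% of CpGs were removed. Regions needed 3 CpGs and 10 reads in every library. Methylated and unmethylated counts were fitted by a quasi-binomial model with group alone, overdispersion moderated over all regions by squeezeVar of limma 3.58.1, and p adjusted by Benjamini-Hochberg over all regions. Every adjusted p in the text comes from this fit. It was tested on simulated data, where 13 of 182 span calls, 2 of 180 calls on shared CpGs and 0 of 28 tile calls were false. Wilson 95% intervals cover counting error only. They can understate even that, because they treat the counts of a read at several CpGs as independent. Library depths are given with the data. An exact permutation test of 2 against 2 libraries cannot go below p = 0.333, and none is reported.

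Members and lists were chosen with earlier results of these data known. Values are given for the 6 genes of smallest p among spans, starts and shared CpGs, the lowest and highest annotated start of each family, the 8 tiles of smallest p with 5 CpGs in each library, and up to 3 genes per list. Genes, starts and promoter sequences came from RefSeq tables of GRCm38.p6. Strand was used only for starts. Reads of a gene and an overlapping gene cannot be told apart in methylation counts. Alternatives left out each library, added a replicate block, used limma, other filters, windows, spans or only shared CpGs. A few genes enter the counts and sums but are not reported here one by one or in figures.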

Additional observations from a re-analysis of the deposited data

How the results depend on the processing

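The count of called receptor spans, starts, tiles and spans on shared CpGs was 0 under every alternative run, including each library left out in turn. Genome-wide, the count of called tiles, 1 as reported, was 0 to 0 with a library left out, 0 with the replicate block, 0 with limma, 0 on shared CpGs, 3 with at least 30 reads and 5 CpGs, and 3 without removal of high coverage. The genome-wide count of spans on shared CpGs, 0 as reported, was 1 with at least 30 reads and 5 CpGs and 2 without removal of high coverage. The cause was not tested, and no called region lay in a receptor gene. Replicate numbers showed no pairing over spans, where same-numbered libraries deviated from their group means with a correlation of 0.02. The replicate block gave no call among receptor genes, but there was none to change. With it 3 of 41 receptor spans had an unadjusted p under 0.05, against 0 without it. Genome-wide 1574 of 20219 spans had one with the block, against 1292 without. Leaving out a library kept the sign of 34 to 37 of 41 span differences and 27 to 28 of 33 start and end differences. The 8 named tiles kept theirs too, but their groups did not overlap, so no other outcome was possible. The same holds for every span and window whose groups did not overlap. On shared CpGs the sign was kept for 12 of 16 starts and ends and 5 of 5 named tiles. Only 7 of these 16 and 1 of these 5 differences stayed within 1 SD, pooled over the groups, of the main value. At CpGs listed in at least 1 library of each group, chosen after seeing the data, 25 of 33 starts and ends kept their sign. Starts rested on 15 to 241 read counts per library, and 51 (3.87%) of 1319 CpGs in their windows were listed in all 4 libraries.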
